A study of Homo sapiens with 12 samples.

Results

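Cholesterol and fatty acid synthesis genes were followed across 4 groups of Huh7 cells, a cell line from a human liver cancer. The 33 genes were selected by symbol for their place in the pathway, with earlier results of these data known, and comprise 18 enzymes of the sterol pathway (7 from acetyl-CoA to farnesyl diphosphate, the mevalonate steps, and 11 from squalene to cholesterol), 6 genes of sterol sensing, SREBP activation and sterol transport, and 9 genes of the fatty acid arm. They were 33 of the 63677 genes in the count table and of the 17092 genes that passed the filter on low counts, and all 33 passed it. The symbols matched 36 rows, of which 3, second identifiers of EBP, NSDHL and ACLY, held 0 counts in every sample and were set aside.

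There were 12 samples, 3 per group. Untreated cells had medium only, GO cells had graphene oxide nanoflakes at 400 µg/mL, GO–Rg3 cells had graphene oxide joined to the ginseng saponin ginsenoside Rg3 at 400 µg/mL, and GO–Rg3–DOX cells had that conjugate loaded with the anthracycline doxorubicin at 100 µg/mL, each for 6 h. No group had free Rg3 or free doxorubicin among the samples used, so the carrier and its cargo cannot be told apart in the loaded groups, and the loaded carrier was given at another dose than the other materials. The labels number the replicates but do not say whether they were separate cultures, so p-values measure only the spread between these samples, which may be technical.

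Hepatocytes make cholesterol from acetyl-CoA through mevalonate, isopentenyl diphosphate and squalene, and fatty acids from the same acetyl-CoA through malonyl-CoA. Both arms are driven by the SREBP transcription factors, which SCAP escorts from the endoplasmic reticulum to the Golgi for cleavage when membrane sterol is low and which INSIG1 and INSIG2 hold back when it is high. SREBF2 encodes the factor best known for the sterol genes and SREBF1 the one best known for the fatty acid genes.

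The libraries held 27802871 to 38877420 counts each. All 7 hepatocyte markers looked at were measured, with ALB at 4111 to 4184 and AFP at 12170 to 12440 CPM (depth-scaled counts after TMM scaling) in untreated cells. Of 6 markers of blood, endothelial and connective tissue cells, PTPRC, CD3E and VWF stayed at or below 6 counts in every library, while COL1A2 lay at 1.63 to 4.82 CPM and COL1A1 below 1 CPM. PECAM1 was listed at 0 throughout, but its identifier had no entry in the annotation used, so it is no check. Mitochondrially encoded genes took 5.31% to 6.28% of the counts in untreated cells, 6.89% to 7.42% in GO–Rg3 cells, 12.1% to 24.1% in GO cells and 12.8% to 19.4% in GO–Rg3–DOX cells. The library of GO replicate 1 had the 24.1% and stood apart from the other GO libraries.

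In untreated cells the pathway was expressed over a wide range. Per kilobase of annotated exon, the level was highest for SCD, the desaturase that makes oleate, at 153.4 ± 5.76 CPM per kb (SD, n = 3), and for EBP, a sterol isomerase, at 150.3 ± 3.22 CPM per kb, and the samples of these neighbours overlapped. HMGCS1, which makes the precursor of mevalonate, followed at 129.4 ± 3.32 CPM per kb and overlapped neither neighbour. In the middle of the order, FDPS, MSMO1, DHCR7, FDFT1 and FASN formed a run from 44.29 to 37.03 CPM per kb in which each overlapped the next, and SREBF2, SQLE, NSDHL, IDI1 and FADS2 formed another from 30.74 to 28.17 CPM per kb. SREBF1 at 7.51 ± 0.57 CPM per kb lay below SREBF2 at 30.74 ± 1.46 CPM per kb without overlap, and INSIG2 at 4.96 ± 0.34 below INSIG1 at 16.19 ± 0.092. The lowest were LPIN1, a phosphatidate phosphatase, at 1.74 ± 0.015 and CYP51A1, the lanosterol demethylase, at 1.17 ± 0.25 CPM per kb. CYP51A1 shares 2844 bases of annotated exon and EBP 644 with an unnamed protein-coding gene on the same strand, so their reads could be split and their levels are uncertain, and HMGCS1 overlaps an antisense RNA by 2497 bases.

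Promoter sequence was available in the RefSeq table (GRCh38.p14, 250 bases before to 50 after the start) for 29 of the 33 genes. Both strands were searched for the letters TCACNCCAC (a classical sterol regulatory element), CCAAT (the box bound by NF-Y, a usual partner of SREBP), CACGTG (an E-box) and GGGCGG (a GC box). The window of SREBF2 alone held TCACNCCAC, starting 133 bases before the start site, beside 1.39% of all 27305 genes in the table. CCAAT was in 21 of 29 windows (72.4%), in 13 of 15 of the sterol steps (86.7%) and in 5 of 8 of the fatty acid arm (62.5%), against 39.7% of all genes of the table and 43.2% of those tested here. CACGTG was in 4 of 29 (13.8%, against 8.77% of all genes and 12.4% of those tested) and GGGCGG in 28 of 29 (96.6%, against 48.3% and 74.4%). A match is a description of the letters and no evidence of binding, and a window without one says nothing of the factor. Windows are shown for SREBF2, the factor's own gene, and for genes that the results below turn on in each direction: TM7SF2 and SCD, and HSD17B7 and ELOVL6. In the order of the sequences printed here (SREBF2, TM7SF2, HSD17B7, SCD and ELOVL6) they lie at chr22:41832855-41833154 (+ strand), chr11:65111622-65111921 (+ strand), chr1:162790452-162790751 (+ strand), chr10:100346983-100347282 (+ strand) and chr4:110198566-110198865 (- strand). Capitals mark TCACNCCAC and CCAAT, the latter written ATTGG where it lies on the other strand, and the window of ELOVL6 holds neither.
SREBF2: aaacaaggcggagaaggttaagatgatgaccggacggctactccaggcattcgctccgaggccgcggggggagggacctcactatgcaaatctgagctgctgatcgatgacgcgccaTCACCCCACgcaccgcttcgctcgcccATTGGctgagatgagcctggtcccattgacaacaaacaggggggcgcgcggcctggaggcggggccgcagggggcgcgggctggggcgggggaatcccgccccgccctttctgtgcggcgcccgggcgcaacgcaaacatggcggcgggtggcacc
TM7SF2: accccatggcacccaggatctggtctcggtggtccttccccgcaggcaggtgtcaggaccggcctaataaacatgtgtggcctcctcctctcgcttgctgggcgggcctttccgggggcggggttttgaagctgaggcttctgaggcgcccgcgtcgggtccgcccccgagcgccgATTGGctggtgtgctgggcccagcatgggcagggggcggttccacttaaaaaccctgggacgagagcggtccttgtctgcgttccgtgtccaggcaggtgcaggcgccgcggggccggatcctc
HSD17B7: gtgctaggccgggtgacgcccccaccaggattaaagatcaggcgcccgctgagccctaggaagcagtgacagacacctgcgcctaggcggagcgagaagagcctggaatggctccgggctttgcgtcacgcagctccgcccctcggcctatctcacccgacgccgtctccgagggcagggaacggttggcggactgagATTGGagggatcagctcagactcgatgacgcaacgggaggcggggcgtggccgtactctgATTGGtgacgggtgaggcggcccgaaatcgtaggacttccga
SCD: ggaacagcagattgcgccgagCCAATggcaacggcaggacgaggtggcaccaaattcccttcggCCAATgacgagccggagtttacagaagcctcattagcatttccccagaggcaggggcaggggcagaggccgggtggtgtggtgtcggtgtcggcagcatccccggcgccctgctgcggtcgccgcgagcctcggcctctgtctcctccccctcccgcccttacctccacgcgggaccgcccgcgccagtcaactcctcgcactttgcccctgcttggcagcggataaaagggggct
ELOVL6: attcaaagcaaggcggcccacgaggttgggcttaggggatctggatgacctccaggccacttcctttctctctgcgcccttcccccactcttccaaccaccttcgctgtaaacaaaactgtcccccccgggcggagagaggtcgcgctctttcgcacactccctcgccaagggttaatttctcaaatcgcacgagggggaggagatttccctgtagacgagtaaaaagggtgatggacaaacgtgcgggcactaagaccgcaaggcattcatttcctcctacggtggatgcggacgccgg

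The first question was what the bare carrier did to these genes. After GO, 6 of the 33 genes rose and 6 fell at an adjusted p below 0.01 (edgeR's quasi-likelihood test, Benjamini-Hochberg adjustment over all 17092 genes), where 12.1% of all genes tested rose and 15.4% fell. The sterol steps had 2 that rose and 4 that fell with a median log2 fold change of −0.28, the fatty acid arm had 2 and 2 with a median of 0.11, and the sensing and transport genes had 2 that rose, against a median of 0.0084 over all genes tested. Each synthesis arm had calls in both directions, and these counts are to be read against the shares of all genes. With the study's thresholds (an absolute log2 fold change above 1 as well) 1 gene was called, IDI1, beside 6.47% of all genes. In bulk RNA, fewer cells of a kind and less RNA per cell cannot be told apart.

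The largest fall in the sterol steps was that of IDI1, the isopentenyl diphosphate isomerase (ENSG00000067064, GRCh37 chr10:1085092-1095059). It stood at 124.3, 124.7 and 119.5 CPM in untreated and 53.81, 66.85 and 59.82 CPM in GO samples, with no overlap. The log2 fold change was −1.03 (SE 0.14, adjusted p = 6.2e-05, edgeR). ACAT2, the cytosolic thiolase that opens the pathway, went from 139.6, 145.3 and 143.6 CPM to 75.98, 86.48 and 76.32 CPM. Its log2 fold change was −0.84 (SE 0.093, adjusted p = 1.2e-05, edgeR), and its exons overlap genes on the other strand, TCP1 by 454 bases. FDFT1, squalene synthase, went from 204.3, 194.4 and 206.7 CPM to 166.6, 148.3 and 134.0 CPM (log2 fold change −0.43, SE 0.094, adjusted p = 0.0021, edgeR). HMGCS1 also fell.

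Against these, MVD, the mevalonate diphosphate decarboxylase, stood at 53.04, 42.20 and 46.68 CPM in untreated and 89.77, 66.53 and 75.01 CPM in GO samples (log2 fold change 0.70, SE 0.18, adjusted p = 0.0067, edgeR). TM7SF2, a sterol reductase late in the pathway, stood at 12.62, 9.495 and 12.18 CPM and at 20.25, 16.59 and 18.53 CPM (log2 fold change 0.69, SE 0.17, adjusted p = 0.0045, edgeR). For both genes all GO samples lay above all untreated ones. IDI1 acts directly on the product of MVD, so the calls of these neighbouring enzymes went opposite ways. That of MVD passed in only 1 of 6 fits with a sample left out. With libraries scaled by their totals alone, MVD was at 0.57 (adjusted p = 0.021, edgeR).

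Among the sensing genes INSIG2 had the largest rise of all 33. It stood at 21.08, 18.45 and 19.22 CPM in untreated and 34.86, 37.45 and 38.51 CPM in GO samples, a 1.89-fold higher level (log2 fold change 0.92, SE 0.12, adjusted p = 5.1e-05, edgeR). Its paralogue INSIG1, itself a well-known SREBP target, stood at 58.70, 59.17 and 59.35 CPM and at 47.16, 62.92 and 62.31 CPM, with overlapping groups (log2 fold change −0.039, SE 0.12, adjusted p = 0.82, edgeR), and was 0.086 without GO replicate 1. SREBF2 rose from 260.1, 236.8 and 245.9 CPM to 357.9, 328.6 and 351.5 CPM (log2 fold change 0.48, SE 0.12, adjusted p = 0.0046, edgeR). SREBF1 had 65.85, 56.68 and 63.03 CPM in untreated and 88.32, 84.40 and 90.97 CPM in GO samples, which did not overlap, but did not pass the test (log2 fold change 0.51, SE 0.18, adjusted p = 0.030, edgeR).

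In the fatty acid arm the fall of ELOVL6, the elongase that carries palmitate to stearate, was the largest. It stood at 74.21, 71.80 and 71.13 CPM in untreated and 32.27, 37 and 39.28 CPM in GO samples, a level 1.999-fold lower (log2 fold change −0.999, SE 0.093, adjusted p = 2.9e-06, edgeR). ACACA, the acetyl-CoA carboxylase that makes malonyl-CoA, went from 96.83, 101.4 and 96.16 CPM to 71.56, 73.75 and 63.95 CPM (log2 fold change −0.49, SE 0.11, adjusted p = 0.0025, edgeR). LPIN1 went the other way, from 20.66, 20.84 and 20.49 CPM to 25.14, 29.91 and 30.19 CPM (log2 fold change 0.46, SE 0.11, adjusted p = 0.0030, edgeR), and ACSS2, an acetyl-CoA synthetase, rose as well. The abundant genes at the centre of the arm did not pass: FASN, the fatty acid synthase, had 362.6, 333.1 and 339.9 CPM against 369.3, 358.0 and 389.9 CPM (log2 fold change 0.11, SE 0.20, adjusted p = 0.68, edgeR). SCD had 834.9, 774.5 and 804.3 CPM against 823.8, 960.9 and 981.6 CPM (log2 fold change 0.20, SE 0.097, adjusted p = 0.11, edgeR).

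Of the 12 calls, those of ACAT2, IDI1, INSIG2 and ELOVL6 held with every sample left out in turn. The other 8 kept their direction but not their call in every fit. Of the 6 fits, MVD, ACSS2 and LPIN1 passed in 1, HMGCS1, TM7SF2 and SREBF2 in 2, FDFT1 in 3 and ACACA in 4. In these 6 fits 1266 to 1870 of all genes rose and 1801 to 2680 fell, against 2074 and 2639 with all samples. With the libraries scaled by their totals alone, 1 gene rose and 5 fell, in place of 6 and 6. At that setting 6 of the 12 calls were kept, and 1223 of all 17092 genes rose and 2780 fell.

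**Figure D1:**
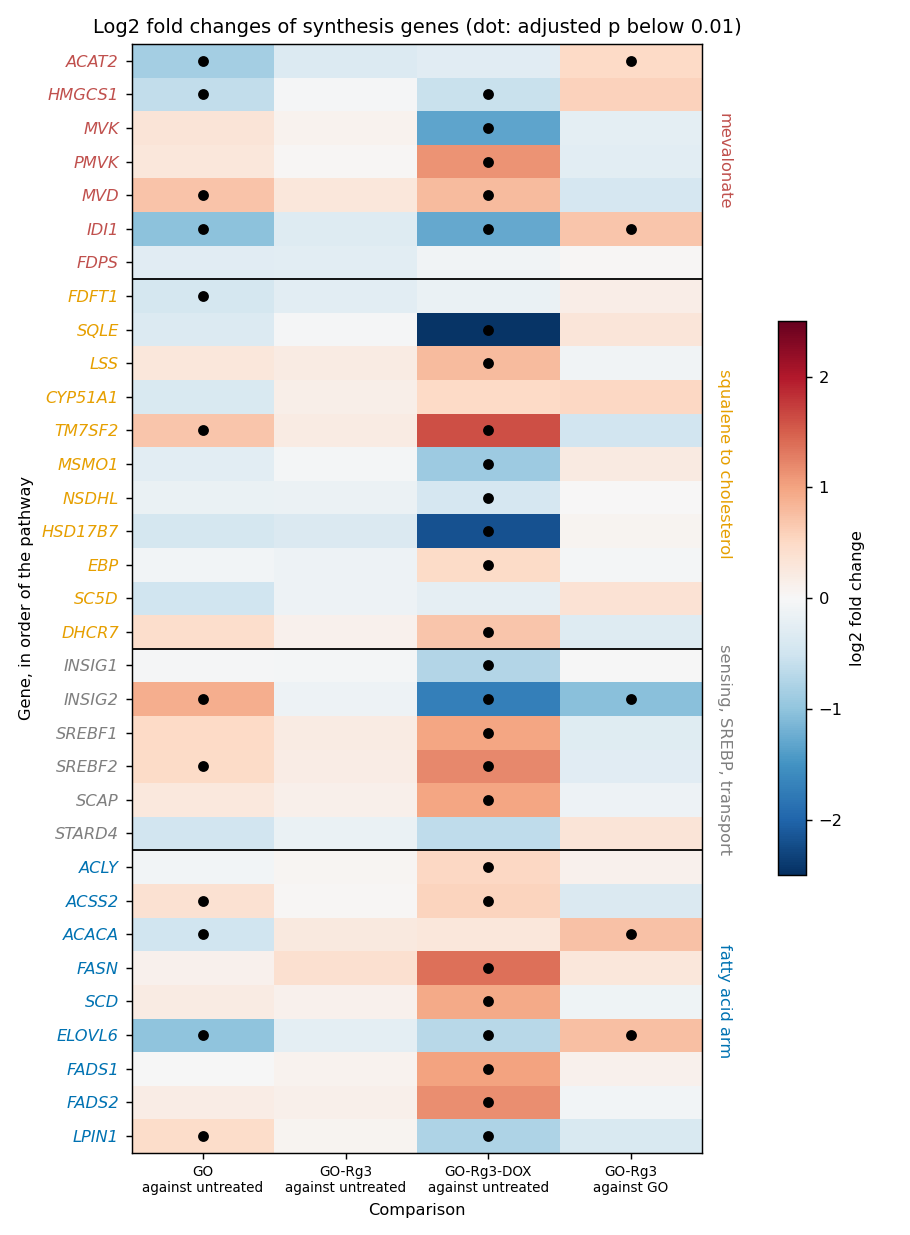
Log2 fold change of each of the 33 genes (rows, in pathway order and coloured by role) in the 4 comparisons (columns), with a black dot where the adjusted p was below 0.01. The GO–Rg3 column against untreated cells has no dot, and that of GO–Rg3–DOX has 26, in both colours along the sterol steps.

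The next question was whether joining Rg3 to the carrier altered this. Against untreated cells, 0 of the 33 genes rose and 0 fell after GO–Rg3, where 0.0585% of all genes rose, 0.105% fell and 0.0585% passed the study's thresholds. DESeq2 also called 0 of the 33, where 72 of all 17092 genes rose and 259 fell. In edgeR's test 7 of the 33 had an unadjusted p below 0.05. The share of all genes below that value is not given here, so this count does not set these genes apart. Log2 fold changes lay between −0.36 and 0.40 with standard errors of 0.085 to 0.39, and the medians were −0.044 for the sterol steps and 0.089 for the fatty acid arm.

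The replicates of FASN and SREBF1 were further apart here than in the other groups. Those of SREBF2 had an SD of 50.27 CPM, above that in untreated (11.75) and GO samples (15.41) but not in GO–Rg3–DOX samples (53.97). FASN stood at 623.1, 270.2 and 474.7 CPM, from below the lowest untreated sample to above the highest (log2 fold change 0.40, SE 0.20, adjusted p = 0.40, edgeR). SREBF1 stood at 94.31, 46.00 and 73.45 CPM (log2 fold change 0.20, SE 0.18, adjusted p = 0.68, edgeR), and SREBF2 at 335.8, 235.6 and 278.5 CPM (log2 fold change 0.19, SE 0.12, adjusted p = 0.53, edgeR). In these 3 genes replicate 1 was the highest and replicate 2 the lowest with GO–Rg3, and replicate 2 was also the lowest of the untreated and of the GO samples. SREBF1 was at −0.049 without replicate 1. SCD at 831.8, 916.1 and 836.6 CPM (log2 fold change 0.099, SE 0.097, adjusted p = 0.73, edgeR) and INSIG1 at 54.25, 59.66 and 57.39 CPM (log2 fold change −0.049, SE 0.12, adjusted p = 0.90, edgeR) were closer together and overlapped the untreated samples.

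The difference between the carriers was tested directly at their shared dose of 400 µg/mL. GO–Rg3 against GO had 4 genes that rose and 1 that fell, where 7.33% of all genes rose and 6.25% fell. This comparison uses the same GO samples as GO against untreated, so a gene that was low in the GO samples enters both. The genes higher with GO–Rg3 came from both arms. ELOVL6 stood at 58.47, 64.86 and 60.68 CPM with GO–Rg3, above all GO samples (log2 fold change 0.76, SE 0.093, adjusted p = 7e-05, edgeR). ACACA stood at 113.6, 127.4 and 108.8 CPM (log2 fold change 0.74, SE 0.11, adjusted p = 0.00032, edgeR), and here the GO–Rg3 samples lay above the untreated ones too. IDI1 stood at 80.64, 113.2 and 99.88 CPM (log2 fold change 0.70, SE 0.14, adjusted p = 0.0023, edgeR), between the other groups, and its call was lost without GO replicate 3 or without GO–Rg3 replicate 3. ACAT2 stood at 104.1, 119.5 and 115.8 CPM, likewise between them (log2 fold change 0.51, SE 0.092, adjusted p = 0.0013, edgeR).

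INSIG2 was the gene that fell, at 16.03, 19.93 and 17.60 CPM with GO–Rg3, and the 1 gene called at the study's thresholds, beside 2.77% of all genes. All GO–Rg3 samples lay below all GO samples (log2 fold change −1.05, SE 0.12, adjusted p = 4.1e-05, edgeR). SREBF2 at −0.29 (SE 0.12, adjusted p = 0.083), SREBF1 at −0.30 (SE 0.17, adjusted p = 0.21), FASN at 0.29 (SE 0.20, adjusted p = 0.29), SCD at −0.098 (SE 0.097, adjusted p = 0.48) and INSIG1 at −0.010 (SE 0.12, adjusted p = 0.96) did not pass edgeR's test on the log2 scale. Without GO–Rg3 replicate 1, 5 genes fell in place of 1, SREBF2 among them at −0.43. In that fit 1334 of all 17030 genes tested fell, against 1068 of 17092 with all samples.

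**Figure D2:**
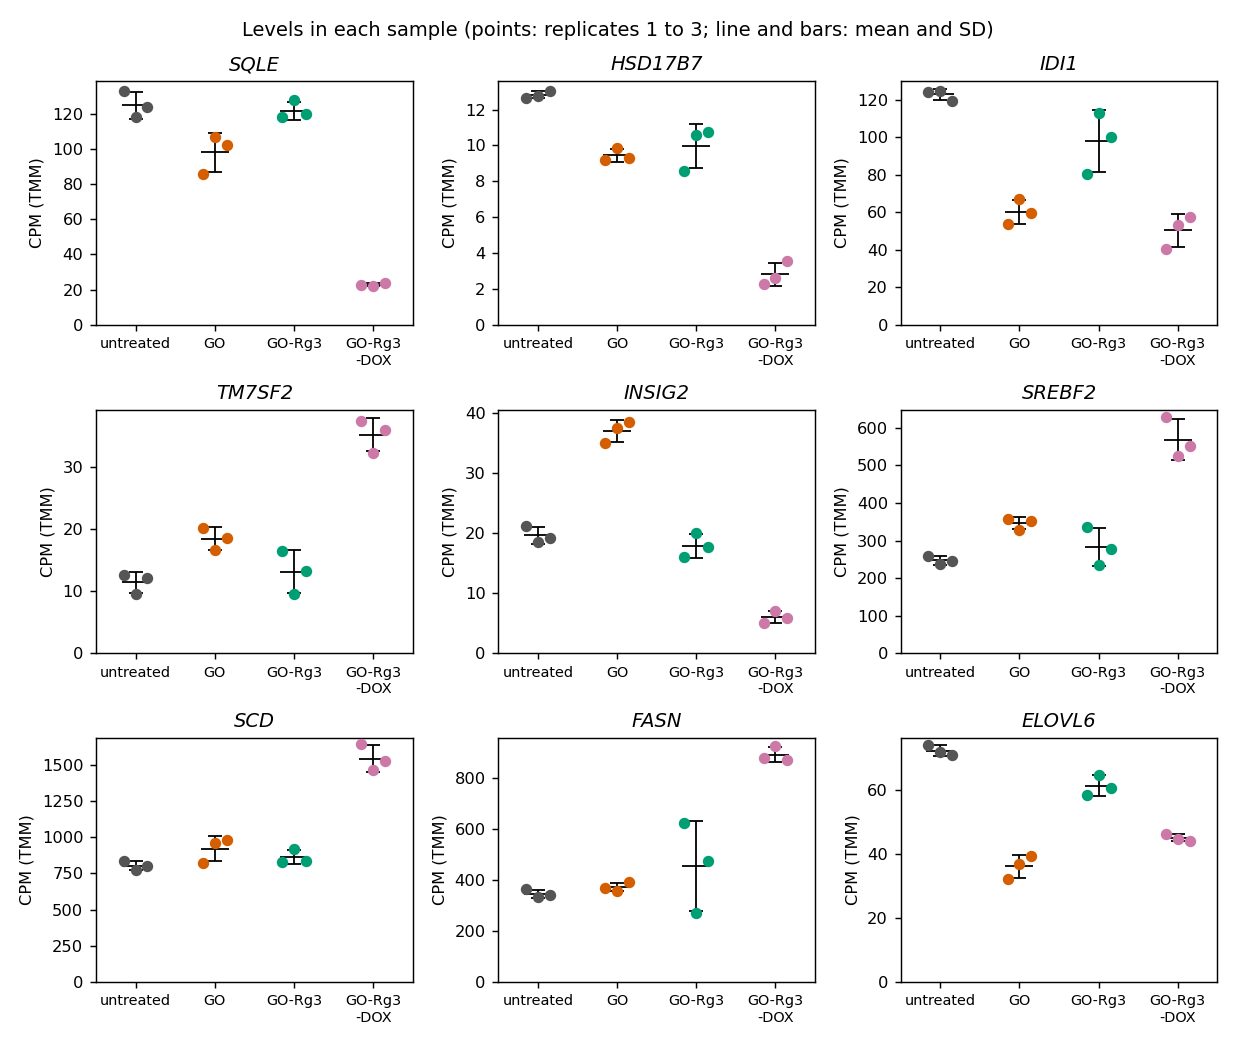
CPM after TMM scaling (vertical axis, from 0) in each sample of the 4 groups for 9 of the genes, with points for the replicates and a line and bars for the group mean and SD. INSIG2 is highest in the GO samples, at 34.86 to 38.51 CPM, and lowest in the GO–Rg3–DOX samples, at 5.03 to 6.97 CPM, and FASN spreads from 270.2 to 623.1 CPM in the GO–Rg3 samples.

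The last question was what the loaded carrier did. After GO–Rg3–DOX at 100 µg/mL, 15 of the 33 genes rose and 11 fell, where 25.5% of all genes rose and 30.5% fell. The sterol steps were split, with 6 that rose and 7 that fell of 18 and a median log2 fold change of −0.20. The fatty acid arm had 6 that rose and 2 that fell of 9, with a median of 0.56, against a median of −0.056 over all genes. The sensing and transport genes had 3 that rose and 2 that fell of 6. At the study's thresholds 6 genes were higher and 5 lower, beside 30.8% of all genes called in either direction. The dose differs from that of the other materials, and all 3 treatments share the untreated samples, so the values are set side by side and no comparison is drawn.

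SQLE, squalene epoxidase, a rate-limiting enzyme that commits squalene to the sterol ring (ENSG00000104549, on chromosome 8), had the largest change. It stood at 132.9, 117.8 and 123.5 CPM in untreated and 22.66, 21.89 and 23.91 CPM in GO–Rg3–DOX samples, 5.47-fold lower (log2 fold change −2.45, SE 0.10, adjusted p = 1.1e-10, edgeR). HSD17B7, the ketone reductase of the sterol demethylation cycle (ENSG00000132196, GRCh37 chr1:162760492-162782613), stood at 12.67, 12.76 and 13.05 CPM and at 2.27, 2.62 and 3.55 CPM, 4.55-fold lower (log2 fold change −2.19, SE 0.15, adjusted p = 1.1e-08, edgeR). In both genes the groups were far apart. The treated samples of SQLE lay close to each other, while those of HSD17B7 had an SD of 0.66 CPM around a mean of 2.81 CPM. TM7SF2 (ENSG00000149809, GRCh37 chr11:64879317-64883856), which acts between these enzymes, went the other way to 37.33, 32.24 and 36.03 CPM, 3.07-fold higher (log2 fold change 1.62, SE 0.17, adjusted p = 6.9e-07, edgeR).

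The mevalonate steps were split in the same manner. MVK, mevalonate kinase, stood at 23.60, 21.55 and 23.41 CPM in untreated and 10.05, 8.52 and 8.85 CPM in GO–Rg3–DOX samples (log2 fold change −1.32, SE 0.14, adjusted p = 8.2e-07, edgeR). PMVK, the kinase that takes over its product, stood at 18.47, 16.08 and 20.04 CPM and at 46.19, 38.24 and 34.32 CPM (log2 fold change 1.12, SE 0.18, adjusted p = 5.7e-05, edgeR). IDI1 was at 40.66, 53.26 and 57.42 CPM (log2 fold change −1.28, SE 0.14, adjusted p = 1.2e-06, edgeR). Read along the pathway, ACAT2 did not pass, at −0.28 (adjusted p = 0.016, edgeR), and HMGCS1 and MVK fell. PMVK and MVD rose, IDI1 fell, and FDPS and FDFT1 did not pass. SQLE fell, LSS rose, CYP51A1 did not pass and TM7SF2 rose. MSMO1, NSDHL and HSD17B7 fell, EBP rose, SC5D did not pass, and DHCR7, the last enzyme of the list, rose.

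The genes of the SREBP machinery also divided. SREBF2 (ENSG00000198911, GRCh37 chr22:42229109-42303310) stood at 628.9, 525.2 and 550.9 CPM, all above the untreated samples (log2 fold change 1.20, SE 0.12, adjusted p = 4.6e-07, edgeR). SREBF1 stood at 121.7, 127.1 and 121.4 CPM (log2 fold change 0.996, SE 0.18, adjusted p = 0.00014, edgeR), and the escort SCAP rose too. The genes of the proteins that hold them back were lower. INSIG2 (ENSG00000125629, GRCh37 chr2:118846028-118868573) stood at 5.03, 6.97 and 5.91 CPM, 3.27-fold lower than in untreated cells (log2 fold change −1.71, SE 0.13, adjusted p = 2.8e-08, edgeR). INSIG1 stood at 30.16, 37.52 and 39.16 CPM (log2 fold change −0.73, SE 0.12, adjusted p = 8.4e-05, edgeR), and no treated sample of either gene reached an untreated one. STARD4, a sterol carrier, did not pass.

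In the fatty acid arm FASN (ENSG00000169710, GRCh37 chr17:80036214-80056170) stood at 879.7, 924.9 and 872.4 CPM, 2.59-fold higher than in untreated cells (log2 fold change 1.37, SE 0.20, adjusted p = 2.1e-05, edgeR). SCD (ENSG00000099194, GRCh37 chr10:102106990-102124583) stood at 1644, 1465 and 1525 CPM (log2 fold change 0.94, SE 0.097, adjusted p = 6.5e-07, edgeR). The neighbouring desaturases of polyunsaturated fatty acids, which overlap on opposite strands by 490 bases, both rose, FADS2 to 720.1, 629.9 and 640.4 CPM (log2 fold change 1.16, SE 0.12, adjusted p = 6.5e-07, edgeR) and FADS1 to 316.6, 283.0 and 278.9 CPM (log2 fold change 1.001, SE 0.086, adjusted p = 9e-08, edgeR). All treated samples of these 4 genes lay above all untreated ones. ACLY, which supplies cytosolic acetyl-CoA from citrate, and ACSS2 rose by less, ACACA did not pass, and ELOVL6 and LPIN1 fell.

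Set side by side, INSIG2 was at 0.92 after GO and −1.71 here, and LPIN1 at 0.46 and −0.76, at different doses and against the same untreated samples. Of the 26 calls, 24 held with each sample left out in turn, and HMGCS1 (lost in all 6 fits) and NSDHL (lost in 3) did not. With libraries scaled by their totals alone the median of all genes moved to −0.47. Then 8 genes of the pathway rose and 16 fell in place of 15 and 11, where 2152 of all 17092 genes rose and 7293 fell. Of the 26 calls 19 were kept, and those of MVD, LSS, EBP, DHCR7, SREBF1, ACLY and ACSS2 were lost. A further 5 genes were called lower. All 26 genes first called kept their direction.

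**Figure D3:**
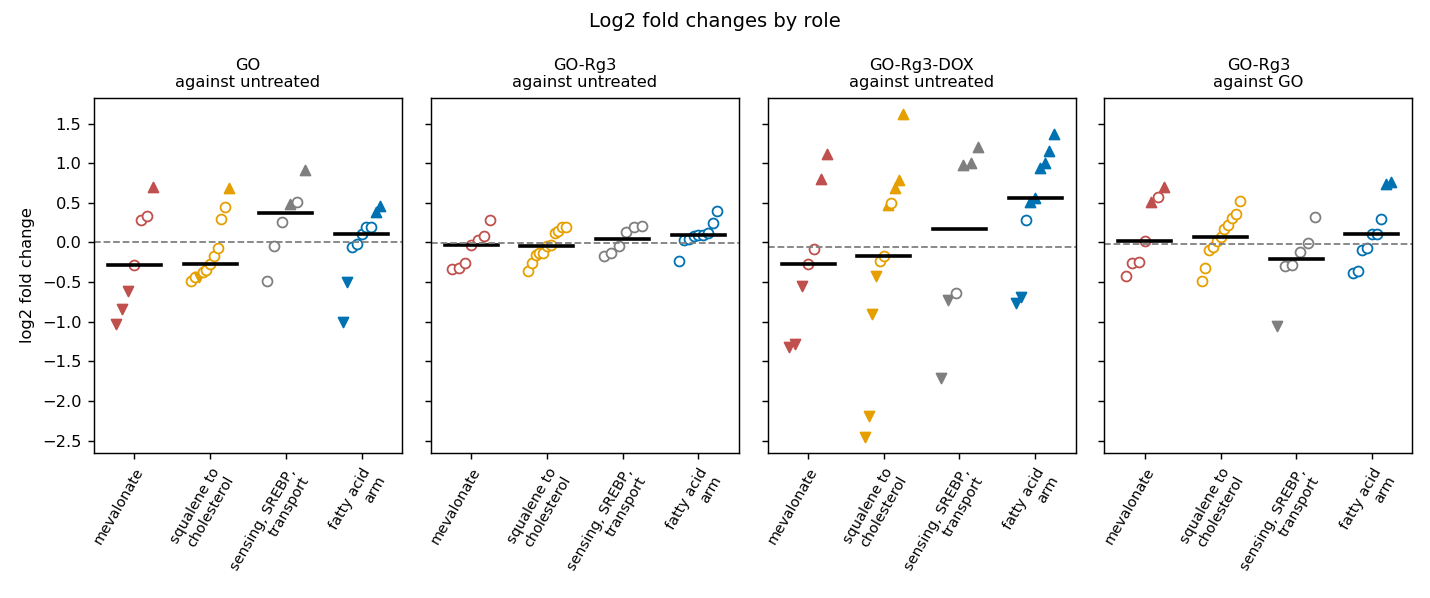
Log2 fold changes (vertical axis) of the genes of each role in the 4 comparisons, with filled triangles for genes that rose or fell at an adjusted p below 0.01, open circles for the rest, a black bar for the median of the role and a dashed line for the median of all genes tested. With GO–Rg3–DOX the median of the fatty acid arm is 0.56, while the sterol steps reach from −2.45 to 1.62.

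Transcript GC content moved with these changes. After GO–Rg3–DOX the 15 genes that rose had a median GC content of 57.9% and the 11 that fell 42.4%, beside 55.3% and 44.8% for all genes that rose and fell. The Spearman correlation of log2 fold change with GC content over the 33 genes was 0.63 for GO, 0.66 for GO–Rg3 and 0.72 for GO–Rg3–DOX against untreated cells and −0.55 for GO–Rg3 against GO. Over the 16736 genes tested with a GC value it was 0.43, 0.20, 0.37 and −0.44. These are correlations across genes of the same libraries, with no test, and genes are not independent replicates. Some of the genes lay off the trend: MVK fell at 59.4% GC and SCD rose at 46.5% GC with GO–Rg3–DOX, and INSIG2 rose after GO at 37.04% GC.

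With GC content as an offset in the model, 24 of the 26 calls after GO–Rg3–DOX were kept. In that fit 16 of the 33 genes rose and 10 fell, where 5197 of all 16736 genes rose and 4705 fell. Without the offset 4350 of all 17092 genes rose and 5214 fell. HMGCS1 at −0.054 (adjusted p = 0.67, edgeR) and MVD at 0.22 (adjusted p = 0.016, edgeR) were lost, and SC5D at 0.40 and ACACA at 0.42 were called higher. SC5D changed sign, having been at −0.23 without the offset (adjusted p = 0.17, edgeR). SQLE was then at −2.02, HSD17B7 at −1.85, MVK at −1.69, INSIG2 at −1.08, TM7SF2 at 1.09, FASN at 0.73, SREBF1 at 0.45 and SCD at 1.16 on the log2 scale. The median of the sterol steps went to −0.026 and that of the fatty acid arm to 0.51, and calls at the study's thresholds went from 11 to 6. The share of all genes at those thresholds under the offset is not given here. After GO, 9 of the 12 calls were kept and those of HMGCS1, TM7SF2 and SREBF2 were lost, where 2253 of all 16736 genes rose and 2896 fell. The median of the fatty acid arm changed sign to −0.17. FDPS at −0.44 (adjusted p = 0.00053, edgeR) and FASN at −0.34 (adjusted p = 0.0098, edgeR) were newly called lower. In GO–Rg3 against GO all 5 calls were kept, and FASN at 0.58 and LPIN1 at −0.36 were added, where 1818 of all 16736 genes rose and 1217 fell. The share of mitochondrially encoded counts, given above, was also higher in all GO and GO–Rg3–DOX samples than in the other groups, and leaving those genes out moved no count of genes that rose or fell by more than 1. The part of GC content and of the mitochondrial share in the result was not tested.

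**Figure D4:**
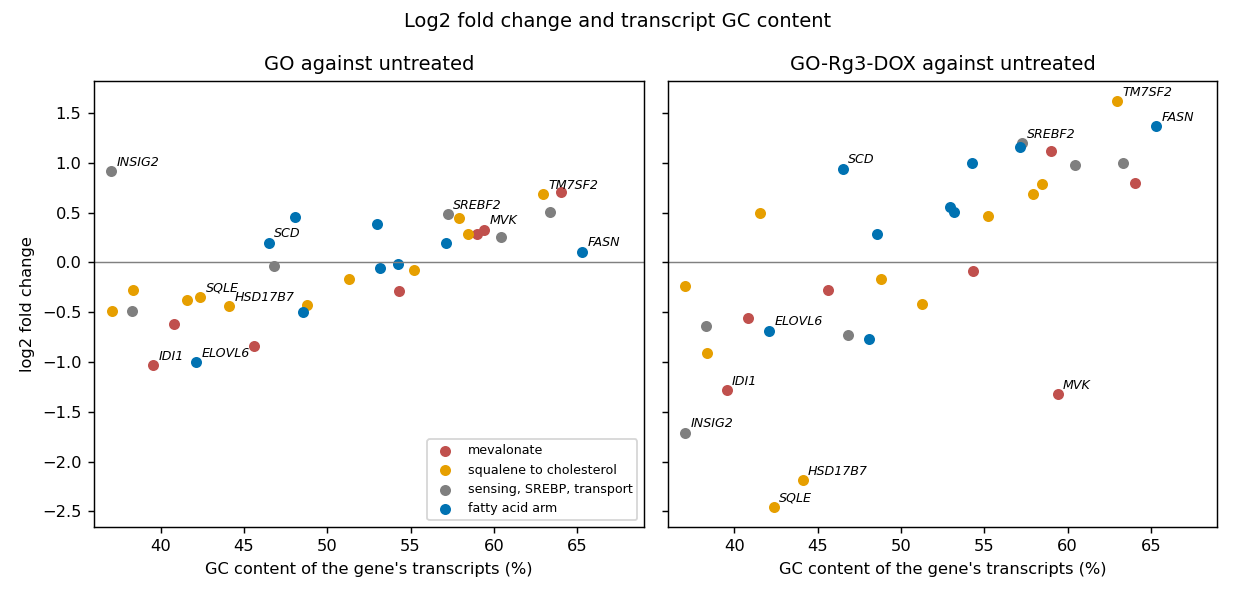
Log2 fold change (vertical axis) against the GC content of a gene's annotated transcripts in percent (horizontal axis) for the 33 genes, coloured by role, after GO (left) and GO–Rg3–DOX (right). The points rise to the right in both panels, and INSIG2 on the left and MVK, SQLE and HSD17B7 on the right lie away from the others.

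Genes around the pathway were counted from 5 lists with 50 genes, of which 49 were tested. After GO, 9 rose and 10 fell, where 12.1% and 15.4% of all genes did, and 4 of 7 in the isoprenoid branch, which draws on farnesyl diphosphate, fell, while 1 rose. GPAM, the acyltransferase that opens glycerolipid synthesis, was at a log2 fold change of −1.14 (adjusted p = 0.00032, edgeR) and LPIN3, a relative of LPIN1, at 1.004 (adjusted p = 8.1e-05, edgeR). After GO–Rg3 against untreated cells 0 rose and 0 fell. In GO–Rg3 against GO 6 rose and 4 fell (7.33% and 6.25% of all genes), and GPAM was at 1.06.

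After GO–Rg3–DOX 20 of the 49 rose and 9 fell, where 25.5% of all genes rose and 30.5% fell, and the counts in each list below are to be read against these shares. In the list of cholesterol traffic, esters and efflux 6 of 12 rose and 1 fell, with SCARB1, the receptor for high density lipoprotein, at 1.43, SOAT2, which esterifies cholesterol, at 1.10 and MYLIP, a sterol-responsive ubiquitin ligase, at 1.28. In that of fatty acid supply, elongation and activation 5 of 16 rose and 2 fell, with the citrate carrier SLC25A1 at 1.30, the transcription factor gene MLXIPL at 1.53 from a low level of 0.61 CPM, and MID1IP1, which promotes assembly of acetyl-CoA carboxylase, at −2.0. Of the glycerolipid genes 4 of 7 rose and 1 fell, with DGAT1, an enzyme of triglyceride formation, at 1.46 and AGPAT1 at 1.22. Of the genes of SREBP processing and degradation 4 of 7 rose and 2 fell, with the ubiquitin ligase RNF139 at −1.40. In the isoprenoid branch 1 of 7 rose and 3 fell. Of the hepatocyte markers 5 of 7 rose and 1 fell, beside the same 25.5% and 30.5%.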

How the data were processed

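RNA of 12 Huh7 samples in 4 groups of 3 was sequenced from stranded libraries of polyadenylated RNA, and groups and replicate numbers came from the labels. The authors assigned the reads to genes on GRCh37 with featureCounts and deposited unnormalized whole-number counts for 63677 genes. Whether the strand was used in counting is not given in the sources used here, which leaves the counts of overlapping genes uncertain.

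The filter required 10 or more counts in 3 or more samples and left 17092 genes. Counts were scaled by TMM in edgeR 4.0.16 (R 4.3.3), and 1 quasi-likelihood model was fitted to all 12 samples without a replicate block. P-values were adjusted over all genes tested in each of 4 comparisons. The threshold was an adjusted p below 0.01, and for the study's thresholds an absolute log2 fold change above 1 was required as well, although the study used DESeq2. Levels are CPM after TMM scaling. Reads carry no molecular identifiers. Exon length, GC content and positions came from a GENCODE annotation lifted to GRCh37 (16736 of the tested genes, 97.9%, had a GC value), with ACACA matched by symbol.

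The genes followed and the lists beside them were chosen with earlier results of these data known. In each comparison and role, values by sample are given for the up to 3 genes with the largest absolute log2 fold change among those called, and always for INSIG1, SREBF1, SREBF2, SCD and FASN. Genes of the other lists are named where an absolute log2 fold change above 1 and the adjusted p were both passed, apart from 1 item that is not reported here. The alternatives were RLE scaling, library totals alone, no filter, at least 10 counts in every sample, DESeq2 1.42.0, a replicate block, a GC offset (loess, span 0.5) with and without the block, no mitochondrially encoded genes, a fit to the 6 samples of a comparison only, fits without each sample in turn, and a threshold of 0.05. The script was tested on simulated data. Python 3.11.15 with pandas 2.3.3 was used for the tables.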

Additional observations from a re-analysis of the deposited data

How the results depend on the processing

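Over all alternatives, 630 of the values for named genes kept their direction and their side of the threshold, 35 no longer passed, 6 newly passed and 17 changed sign. The 17 belonged to INSIG1, FASN, SREBF1 and SCD in comparisons where they had not been called. Among the counts of genes that rose or fell, 116 stayed within 1.5 times and 20 did not, and among the medians of the arms 108 stayed within the spread of the replicates and 20 did not. Every gene of the pathway had at least 52 counts in each of the 12 samples. Where a value moved, the cause was not tested.

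For GO against untreated, library totals alone gave 1 gene that rose, and medians of −0.394 for the sterol steps and −0.011 for the fatty acid arm. DESeq2 and a threshold of 0.05 each gave 10 that fell. Of all 17092 genes 2902 fell with DESeq2, against 2639 in the main fit, and the count over all genes at 0.05 is not given here. The GC offset gave −0.144 and −0.169, and with the block −0.138 and −0.170. With each sample left out, 1 to 5 genes rose, fewest without untreated replicate 2 or 3 or GO replicate 3 (1). There were 2 without untreated replicate 1 and 3 without GO replicate 1. Of all genes tested, 1321, 1266 and 1505 rose in the fits with 1, in the order named. Without untreated replicate 1 it was 1273 and without GO replicate 1 it was 1808, against 2074 with all samples. In the fits with a sample left out 3 to 7 fell. The 3 were found without GO replicate 3, where 1839 of all genes fell, against 2639 with all samples. The median of the sterol steps was −0.306 to −0.227. INSIG1 was at 0.030 with the GC offset, 0.021 with the block added and −0.106 to 0.086 with each sample left out, and FASN at −0.011 with library totals and −0.342 and −0.343 with the GC offset without and with the block.

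For GO–Rg3 against untreated, the 6 samples alone gave a median of 0.158 in the fatty acid arm and INSIG1 at 0.019, against 0.010 under the GC offset with or without the block. SREBF1 was at −0.049 to 0.439 with each sample left out. For GO–Rg3–DOX, library totals gave 8 genes that rose and medians of −0.613 and 0.135, the GC offset gave a sterol median of −0.026 with or without the block, no filter gave a fatty acid median of 0.480, and leaving out samples gave 0.536 to 0.653.

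For GO–Rg3 against GO, 2 genes rose with the 6 samples alone, where 163 of all 17092 genes rose, against 1253 in the main fit. The genes that fell were 2 with at least 10 counts in every sample and with the GC offset (also with the block). They were 3 with DESeq2 and 4 with a threshold of 0.05. Of all genes, 1093 of 13706 fell with at least 10 counts in every sample and 1217 of 16736 with the GC offset (1372 with the block). With DESeq2 1349 of 17092 fell, and the count over all genes at 0.05 is not given here. With each sample left out 1 to 5 fell, 5 without GO–Rg3 replicate 1 and 2 without GO replicate 1 or GO–Rg3 replicate 2. Of all genes, 1334, 895 and 749 fell in these fits, in the order named, against 1068 with all samples. Library totals gave medians of 0.196 and 0.248, and the GC offset 0.256 for the fatty acid arm, 0.259 with the block. Its range with samples left out was 0.001 to 0.14, lowest without GO–Rg3 replicate 1 and at 0.040 without GO replicate 1. INSIG1 was at 0.124 with library totals, 0.008 without a filter, 0.006 without mitochondrially encoded genes and −0.134 to 0.057 with samples left out, and SCD at 0.042 with library totals.

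The labels do not say what the replicate numbers stand for, and the main model did not pair the samples by number. The correlations that follow do not decide whether the numbers mark pairs. Deviations from the group means correlated at a median of 0.048 (−0.024 to 0.25) over 18 pairs with the same number, 7 of them above 0.1, and at −0.034 over 36 pairs with other numbers, 1 of them above 0.1. With the number as a replicate block, 7 genes rose and 9 fell after GO, where 2601 and 3190 of all 17092 genes did. With GO–Rg3–DOX they were 15 and 12 (4617 and 5477 of all genes), and with GO–Rg3 0 and 0 (18 and 66). In GO–Rg3 against GO 5 rose and 4 fell (1810 and 1561 of all genes).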

Other observations

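The hepatocyte markers were examined as a check of the cell type and moved in more than one direction. After GO, ALB (albumin) fell by 0.67 and AFP (alpha-fetoprotein) fell by 1.07 on the log2 scale, and HNF4A, a transcription factor of hepatocyte identity, rose by 0.63 (adjusted p = 0.0012, 0.00016 and 0.00056, edgeR's quasi-likelihood test). After GO–Rg3–DOX, HNF4A fell by 1.02 while ALB rose by 0.57, AHSG by 1.29, APOA2 by 0.85, FGA by 1.04 and FGB by 0.89, all secreted plasma proteins, and AFP at 0.22 did not pass (adjusted p = 0.25). HNF4A stood at a mean of 363.3 CPM in untreated, 563.5 CPM in GO and 179.6 CPM in GO–Rg3–DOX samples. After GO–Rg3, 0 of the 7 markers passed against untreated cells. Both collagen genes with enough counts also rose after GO–Rg3–DOX, COL1A1 by 2.55 from a mean of 0.11 CPM and COL1A2 by 1.19 from 1.87 CPM. The doses of the materials differ and the treatments share the untreated samples, so these values are not compared with each other.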
